A study of Sus scrofa with 20 samples.

Results

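Vesicle release machinery genes were studied in the hippocampus of pigs that differed in early-life coping behavior. The gene set comprised 8 genes, SNAP25, SYT1, STX1A, VAMP2, SYP, SYN1, SYN2 and SV2B, and the probe sets were taken by gene symbol in the platform annotation. The annotation used here gave no probe set the symbol SYP, which encodes synaptophysin, so 7 of the 8 genes were measured. They were covered by 14 of 47722 probe sets that were not controls, out of 13755 genes with a symbol. For each gene the probe set with the highest mean over all arrays was used and the others were read for agreement. The filter on dim probe sets removed 1 of the 14, the dimmest of the 4 probe sets of SYN2, with a mean of 5.51 log2 against the limit of 5.53.

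RNA of the hippocampus of 20 German Landrace pigs was hybridized to Affymetrix porcine Snowball arrays, with 1 array per animal. The labels call the animals adult, and per the study's methods they were slaughtered within their first year of life. According to the labels 10 animals were high-reactive (HR) and 10 were low-reactive (LR). Per the study's methods these were animals from the extremes of the backtest, in which a piglet is held on its back and its struggling is scored, and they also carried different haplotypes at a coping behavior QTL on SSC12. Coping behavior and haplotype therefore cannot be told apart in these groups, the labels name no treatment, and the sex and litter of each animal and its date of slaughter were not used here.

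As background, transmitter release starts when a synaptic vesicle docks at the active zone of a nerve terminal. VAMP2 on the vesicle then winds into a tight bundle with syntaxin 1 and SNAP25 on the plasma membrane, and this SNARE complex pulls both membranes together. Synaptotagmin 1, encoded by SYT1, senses calcium and triggers fusion, synapsins tether the reserve vesicles to actin and to one another, and SV2 and synaptophysin are membrane proteins of the vesicle. In the hippocampus this machinery serves excitatory and inhibitory terminals alike, and its transcripts are made in the cell bodies of the neurons. In bulk tissue, fewer neurons and less RNA per neuron cannot be told apart.

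The arrays were alike, with correlations of 0.949 to 0.991 between arrays and medians of 5.48 to 5.57 log2. Marker genes of neurons were bright, led by STMN2 with a mean of 12.21 log2, as were the astrocyte marker GLUL at 12.66 and the oligodendrocyte marker MBP at 13.45, so markers of the main brain cell types were present. Of the 15 neuron markers 11 passed the filter, 1 was higher in HR at an unadjusted p under 0.05 and 0 were lower. The mean of these markers ran from 9.99 to 10.27 log2 in HR and from 9.91 to 10.22 in LR. The GC-rich background level, the mean of 18 control probe sets of 20 to 25 G or C bases per probe that match no pig transcript, averaged 7.58 ± 0.20 on the HR arrays and 7.78 ± 0.20 on the LR arrays (SD, n = 10 each). It ran from 7.26 to 8.01 in HR and from 7.49 to 8.09 in LR.

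SNAP25, the plasma membrane SNARE that gives the bundle a pair of helices, was the gene with the clearest difference between the groups. Its values ran from 11.89 to 12.53 log2 in HR with a median of 12.25, and from 11.84 to 12.31 in LR with a median of 12.02. The groups overlapped, but the LR median was exceeded by 8 of 10 HR arrays, and 4 of them lay above every LR array. The HR mean of 12.24 ± 0.19 exceeded the LR mean of 12.03 ± 0.13 (SD, n = 10 each) by 0.21 ± 0.08 log2 (SE), a fold of 1.15 with a 95% interval of 0.05 to 0.36 log2. With limma the unadjusted p was 0.0135, and the p adjusted over all 23861 kept probe sets was 0.344, so the difference did not pass. A two-sided permutation test of the same values gave p = 0.0119. With HR replicate 5 and LR replicate 1 left out, the highest and the lowest array of the first principal component, the difference was 0.15 (p = 0.0531). The second probe set of SNAP25, much dimmer with a mean of 6.61 log2, did not show it, with 6.60 in HR against 6.61 in LR and a wide interval of -0.44 to 0.43. The GC-rich background level, the neuron markers and the number in the sample title all varied with SNAP25 across arrays, as described below. With these measures as covariates the difference was 0.08 (p = 0.192), 0.10 (p = 0.0833) and 0.05 (p = 0.524), respectively. The title number nearly separated HR from LR, so the last of these fits can hardly tell group from number. In limma fits with the first principal component or the oligodendrocyte markers as covariate the difference was 0.13 (p = 0.0215) and 0.19 (p = 0.0252). The exact Wilcoxon test gave p = 0.0147.

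STX1A, which encodes the syntaxin to which SNAP25 binds, had a difference near 0. In HR the values ran from 7.78 to 8.46 with a median of 8.13, and in LR from 7.89 to 8.67 with a median of 8.06. The difference of the means was -0.05 ± 0.10 log2 (95% interval -0.26 to 0.17, limma adjusted p = 0.862). The LR arrays spread more widely, and LR replicates 1 and 2 lay above every HR array. Leaving out either of them turned the difference to between 0.00 and 0.01 log2. The second probe set of STX1A differed by -0.10 log2 (adjusted p = 0.685).

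VAMP2, the vesicle SNARE, was read by 1 probe set. It ran from 10.16 to 10.83 log2 in HR with a median of 10.53 and from 10.34 to 10.87 in LR with a median of 10.55. The HR mean was 10.48 ± 0.23 and the LR mean 10.59 ± 0.17 (SD, n = 10 each), so they differed by -0.10 ± 0.09 (SE, 95% interval -0.29 to 0.08, limma adjusted p = 0.637). The groups overlapped over most of their range, with 3 HR arrays below every LR array. VAMP2 lies on SSC12, the chromosome of the coping behavior QTL, between PER1 and TMEM107 in the order of genes of the Sscrofa11.1 annotation. In that order 24 protein-coding genes separate it from MPDU1 and 19 from ATP1B2, which the study places in the QTL region. None of the other genes of the set is on this chromosome. SNAP25 is on chromosome 17, SYT1 on 5, STX1A on 3, SYN2 on 13, SV2B on 7, and SYN1 and SYP are on X.

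SYT1, the calcium sensor, had nearly the same mean in both groups. The HR arrays ran from 11.98 to 12.63 with a median of 12.33 and the LR arrays from 11.97 to 12.51 with a median of 12.27. The difference was 0.03 ± 0.09 log2 with an interval of -0.16 to 0.22 (limma adjusted p = 0.897). At this probe set a change of more than 0.22 in either direction lies outside the interval. Without HR replicate 5 it was -0.00654, and without LR replicate 1 it also turned below 0. The second probe set of SYT1 differed by 0.12 ± 0.12 and varied almost in parallel with the first (r = 0.971 over 20 arrays, permutation adjusted p = 4.67e-05 over 7 such pairs).

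Neither synapsin gene passed the test. SYN1 ran from 10.12 to 10.64 in HR with a median of 10.46 and from 10.21 to 10.79 in LR with a median of 10.45. Its difference was -0.06 ± 0.08 log2 (95% interval -0.24 to 0.11, limma adjusted p = 0.762). SYN2 ran from 10.66 to 11.20 in HR with a median of 10.97 and from 10.76 to 11.16 in LR with a median of 10.98, and the difference was -0.02 ± 0.07 (95% interval -0.16 to 0.13, adjusted p = 0.926). Without HR replicate 5 or 9 or LR replicate 1 or 2 the SYN2 difference turned to between 0.00 and 0.02. Both genes thus overlapped between HR and LR over nearly all of their range. The next 2 probe sets of SYN2 in brightness differed by -0.16 and -0.11, and the dimmest one, which hardly varied with the brightest (r = 0.0297, rho = 0.171), by 0.12.

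SV2B, a glycoprotein of the vesicle membrane that binds synaptotagmin, pointed the other way from SNAP25. The values ran from 9.97 to 10.56 log2 in HR with a median of 10.29 and from 10.29 to 10.56 in LR with a median of 10.36. The upper ends of both groups met, while 5 of 10 HR arrays had values under every LR array. The HR mean of 10.28 ± 0.20 and the LR mean of 10.41 ± 0.11 (SD, n = 10 each) differed by -0.14 ± 0.08 (SE), a fold of 0.909 with a 95% interval of -0.30 to 0.02, which missed the unadjusted threshold (limma p = 0.0848, adjusted p = 0.476). Without HR replicate 2 it was -0.17 (p = 0.0332), and it also passed without HR replicate 5, without both HR replicate 5 and LR replicate 1 (-0.17, p = 0.0378) and as the mean of its 2 probe sets (-0.16, p = 0.0467). In the second probe set, with 8.98 in HR against 9.16 in LR, the difference was -0.19 ± 0.08 (p = 0.039, adjusted p = 0.412). In this probe set 8 of 10 HR arrays fell under the median of LR and 4 lay below every LR array. When the GC-rich background entered the fit as covariate, the difference of the brightest SV2B probe set was -0.22 (p = 0.00755), and it was -0.20 with the first principal component (p = 0.00485) or the neuron markers (p = 0.00976). With the title number (-0.16, p = 0.116) or the oligodendrocyte markers (-0.13, p = 0.118) as covariate it did not pass. A permutation test gave p = 0.0737 and the exact Wilcoxon test p = 0.105. Of the 20 fits with 1 array left out 2 passed, and without HR replicate 4 the difference was -0.10 (p = 0.175).

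**Figure D1:**
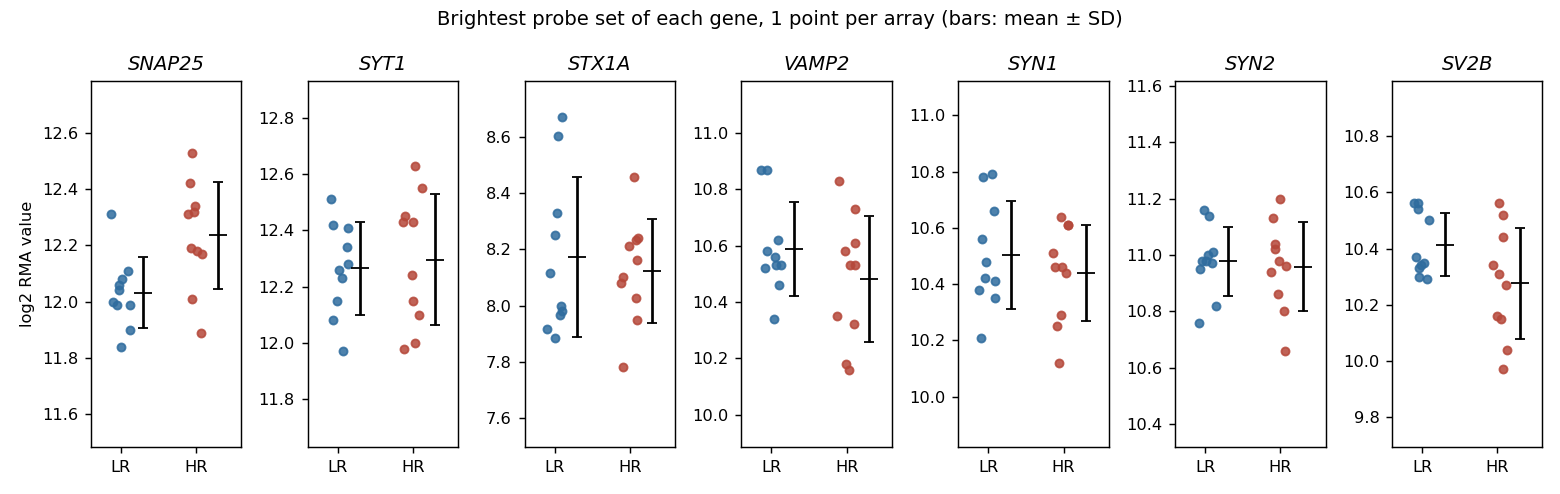
Log2 RMA value of the brightest probe set of each of the 7 measured genes (y axis, a separate range of equal height for each gene) in LR and HR, with 1 point per array and bars for the mean ± SD of 10 arrays. The HR points of SNAP25 tend to sit higher, with 4 above every LR point, and 5 HR points of SV2B sit below every LR point. HR and LR overlap for all 7 genes.

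Counted together, 1 of the 7 measured genes, SNAP25, was higher in HR at an unadjusted p under 0.05 and 0 were lower. Among all kept probe sets 11.5% passed this threshold in either direction, 7.78% higher and 3.74% lower, so 1 of 7 genes (14.3%) is close to the background. After adjustment 0 of the 7 genes passed, as did 0% of all kept probe sets. The background depends on HR replicate 1, since without it 4497 probe sets in place of 2750 were past the unadjusted threshold and 110 past the adjusted one. The mean was lower in HR for 5 of the 7 genes, against 54.1% of all kept probe sets, and the median difference of the 7 was -0.05 against -0.01 for all. HR and LR separated without overlap for 0 of the 7 genes and for 0% of the kept probe sets.

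**Figure D2:**
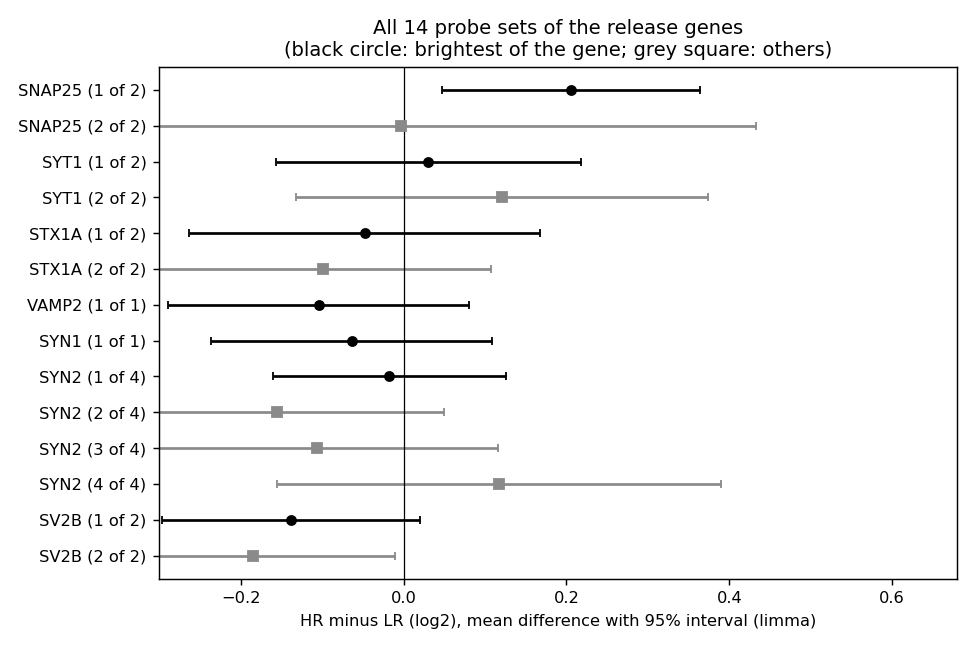
Difference HR minus LR (x axis, log2) for all 14 probe sets with 95% limma intervals, the brightest probe set of each gene as a black circle and the others as grey squares. The left edge of the axis cuts off the lower ends of intervals of grey squares of SNAP25, STX1A, SYN2 and SV2B. The intervals of the brighter SNAP25 probe set, 0.05 to 0.36, and of the second SV2B probe set, -0.36 to -0.01, leave out 0, and all others include it.

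For SYT1, STX1A, VAMP2, SYN1 and SYN2 the SD within each group was larger than the difference between HR and LR, and across arrays the genes varied in opposing blocks. STX1A, VAMP2, SYN1 and SYN2 rose and fell together over the 20 arrays, and SNAP25 and SYT1 varied together and against these 4 genes. Of the 21 pairs of brightest probe sets 16 passed a permutation test of Pearson's r adjusted over the 21 pairs, 8 with a positive and 8 with a negative r. How often pairs of other genes pass this test was not computed, so the blocks are not shown to be particular to these genes. The closest pair was the vesicle SNARE VAMP2 and SYN1 with r = 0.886 and Spearman's rho = 0.878 (adjusted p = 0.00021 and 0.00042). It held within HR (r = 0.92) and within LR (r = 0.88) and without the 2 arrays farthest from the median of VAMP2 (r = 0.84). SYN1 and SYN2 had r = 0.793 and rho = 0.78 (adjusted p = 0.000315 and 0.00115), and r = 0.792 in HR, 0.832 in LR and 0.694 without the 2 farthest arrays. STX1A and SYN1 had r = 0.771 and rho = 0.659 (adjusted p = 0.000714 and 0.00591). Their r was 0.651 in HR without passing (adjusted p = 0.0706), 0.853 in LR and 0.618 without the 2 farthest arrays. These 4 genes thus formed a block of 6 pairs, all positive and all past the threshold over the 20 arrays. The pair of STX1A and SYN2 was the weakest, with r = 0.605 and rho = 0.583 (adjusted p = 0.00838 and 0.0139), 0.422 in HR without passing (adjusted p = 0.244) and 0.824 in LR. Without LR replicates 1 and 2 its r was 0.453 and no longer passed (adjusted p = 0.0773).

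The second block was looser. SNAP25 and SYT1 had r = 0.619 and rho = 0.582 (adjusted p = 0.00675 and 0.0139). Here r was 0.686 in HR without passing (adjusted p = 0.0626), 0.713 in LR (adjusted p = 0.0348) and 0.599 without the 2 farthest arrays. Against the first block SYT1 had its strongest opposite relation with SYN1, with r = -0.738 and rho = -0.686 (adjusted p = 0.000714 and 0.00475). It was -0.752 in HR (adjusted p = 0.05), -0.763 in LR (adjusted p = 0.0251) and -0.612 without the 2 farthest arrays. The calcium sensor and the vesicle SNARE, SYT1 and VAMP2, had r = -0.735 and rho = -0.716 (adjusted p = 0.00091 and 0.00289). Their r was -0.747 in HR (adjusted p = 0.05), -0.735 in LR (adjusted p = 0.0334) and -0.614 without the 2 farthest arrays. SNAP25 and VAMP2, partners in 1 complex, had r = -0.693 and rho = -0.645 (adjusted p = 0.00192 and 0.00702). There r was -0.736 in HR (adjusted p = 0.05), -0.569 in LR without passing (adjusted p = 0.141) and -0.555 without the 2 farthest arrays. The relation of SNAP25 and SYN2 was weaker without HR replicates 5 and 9, where r went from -0.504 to -0.197. Its r was -0.575 in HR and -0.544 in LR, in neither case passing (adjusted p = 0.106 and 0.146). SNAP25 and SYN1 were at the threshold without the same arrays (r = -0.507, adjusted p = 0.05), and SYT1 and SYN2 did not pass without HR replicate 5 and LR replicate 1 (r = -0.497, adjusted p = 0.0511). Over the 20 arrays SV2B passed only with SYT1, where r was 0.586 and rho 0.526 (adjusted p = 0.00987 and 0.0291). That relation was 0.815 in HR, 0.359 in LR without passing (adjusted p = 0.378) and 0.601 without the 2 farthest arrays. SV2B and STX1A had r = -0.266 and rho = -0.427 (adjusted p = 0.301 and 0.0758), -0.452 in HR and -0.305 in LR, but without LR replicates 1 and 2 r was -0.563 and passed (adjusted p = 0.028). SNAP25 and SV2B, which pointed in opposite directions between HR and LR, had r = 0.0634 and rho = 0.0271 (adjusted p = 0.791 and 0.912), with 0.329 in HR, 0.529 in LR and 0.0535 without the 2 farthest arrays. With the group means taken out 16 of the 21 pairs passed again.

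**Figure D3:**
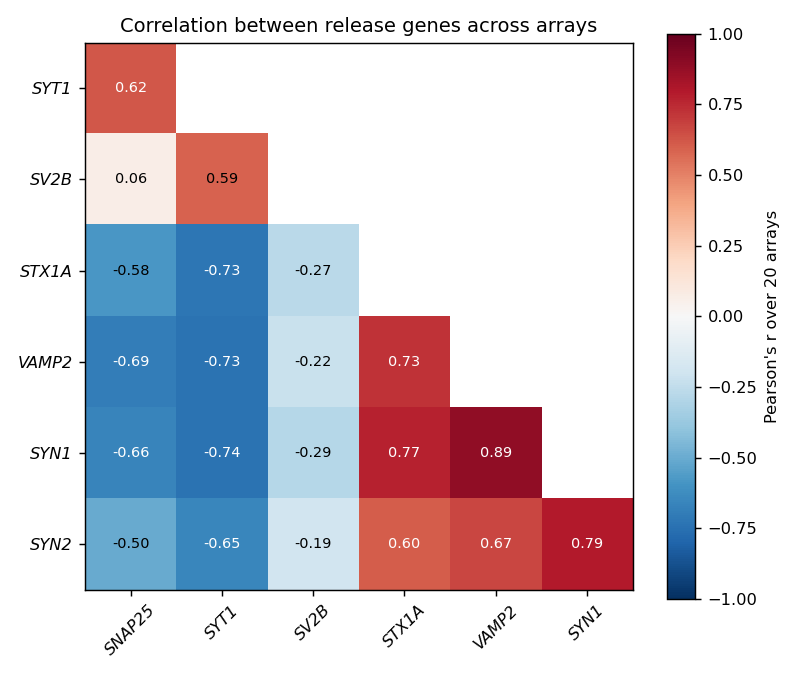
Pearson's r between the brightest probe sets of the 7 measured genes over 20 arrays, from -1 in blue to 1 in red. STX1A, VAMP2, SYN1 and SYN2 form a positive block with r up to 0.89 for VAMP2 and SYN1, and their r with SNAP25 and SYT1 is negative, down to -0.74 for SYT1 and SYN1.

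The same blocks appeared against measures of the whole array. Of 35 relations of the 7 genes with 5 array measures 22 passed a permutation test adjusted over the 35, 9 positive and 13 negative, and 26 passed with the group means taken out. The share of such relations among other genes was not computed. The first principal component of all kept probe sets held 48% of the variance. SYT1 followed it with r = 0.922 and rho = 0.932 (adjusted p = 8.75e-05 for each), with r = 0.939 in HR, 0.96 in LR and 0.893 without the 2 farthest arrays. STX1A ran against it with r = -0.832 and rho = -0.80 (adjusted p = 0.0001 and 0.000408), with -0.795 in HR, -0.937 in LR and -0.752 without the 2 farthest arrays. Both genes are among the probe sets from which the component was computed.

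SNAP25 was the gene most closely related to the GC-rich background level, with r = -0.862 and rho = -0.841 (adjusted p = 8.75e-05 for each). The relation was -0.882 in HR, -0.777 in LR and -0.789 without the 2 farthest arrays. SYT1 had r = -0.686 and rho = -0.708 (adjusted p = 0.00256 and 0.00191). SNAP25 was thus high on arrays with a low background, and this background was lower on the HR arrays by 0.20 log2. With the mean of the neuron markers SNAP25 had r = 0.838 and rho = 0.842 (adjusted p = 8.75e-05 for each), with 0.853 in HR, 0.828 in LR and 0.775 without the 2 farthest arrays. The 4 genes of the first block, in contrast, were lower on arrays with more neuron marker signal, for example STX1A with r = -0.767 and rho = -0.701 (adjusted p = 0.000233 and 0.00242). For STX1A this was -0.807 in HR, -0.795 in LR and -0.656 without the 2 farthest arrays. Without the 2 farthest arrays, HR replicate 5 and LR replicate 2, the neuron marker relations of VAMP2, SYN1 and SYN2 no longer passed. There r was -0.451, -0.476 and -0.473, with the sign kept. The same held for the relations with the background level without HR replicate 5 and LR replicate 1, where r was 0.445, 0.487 and 0.342 for these genes and -0.536 for SYT1. The array measures themselves were related, since the background level and the neuron marker mean had r = -0.906 and rho = -0.925 (adjusted p = 3.33e-05 for each over 10 pairs of measures). That relation was -0.935 in HR, -0.852 in LR and -0.864 without the 2 farthest arrays, so the background and the neuron markers cannot be told apart here. Of the 10 pairs of measures 7 passed. The first principal component had r = -0.879 with the background level and 0.913 with the neuron markers. For the number in the sample title these were -0.748 and 0.67, so the relations of a gene to these measures are not separate readings.

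Each sample title holds a number whose meaning is not stated. The number averaged 2863 ± 109 over the HR animals and 2601 ± 225 over the LR animals (SD, n = 10 each). Apart from HR replicate 1, every HR animal had a number above the highest LR number. Group and number can therefore hardly be told apart. A difference that did not pass with the title number as covariate may have been taken out with the group itself. SNAP25 was related to this number with r = 0.757 and rho = 0.877 (adjusted p = 0.00035 and 8.75e-05). It was 0.729 within HR, 0.736 within LR without passing (adjusted p = 0.0691) and 0.773 without the 2 farthest arrays, LR replicates 1 and 2. For STX1A, VAMP2 and SYN1 the relation with the number passed for r but not for rho, and without LR replicates 1 and 2 r was only -0.212, -0.283 and -0.238, so it rested on these 2 arrays. The oligodendrocyte markers were related to 0 of the 7 genes, and for SV2B 0 of the 5 relations passed over the 20 arrays as they are. With the group means taken out 3 of them passed, with r = 0.627 for the first principal component (adjusted p = 0.00679), -0.514 for the background level (adjusted p = 0.0308) and 0.51 for the neuron markers (adjusted p = 0.0312). Within LR the background relation of SV2B was -0.816 (adjusted p = 0.0229) and within HR -0.373 (adjusted p = 0.43). In the same reading the relation of SYT1 with the title number passed too (r = 0.485, adjusted p = 0.0312). Before the group means were taken out the first principal component came nearest for SV2B, with r = 0.428 and rho = 0.441 (adjusted p = 0.0888 and 0.0944), 0.698 in HR, 0.52 in LR and 0.416 without the 2 farthest arrays.

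After a straight-line fit on the GC-rich background level was taken out of each gene, an alternative added after the data were seen, 3 of the 21 pairs passed in place of 16. These were VAMP2 and SYN1 (r = 0.802, adjusted p = 0.00147), SYN1 and SYN2 (r = 0.678, adjusted p = 0.0101) and SYT1 and SV2B (r = 0.603, adjusted p = 0.0368). The opposition between SNAP25 and the first block was weaker, with r of -0.368 for VAMP2, -0.224 for SYN1, -0.0494 for SYN2 and 0.123 for STX1A. The opposition between SYT1 and the same genes ran from -0.531 to -0.438 and no longer passed either.

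**Figure D4:**
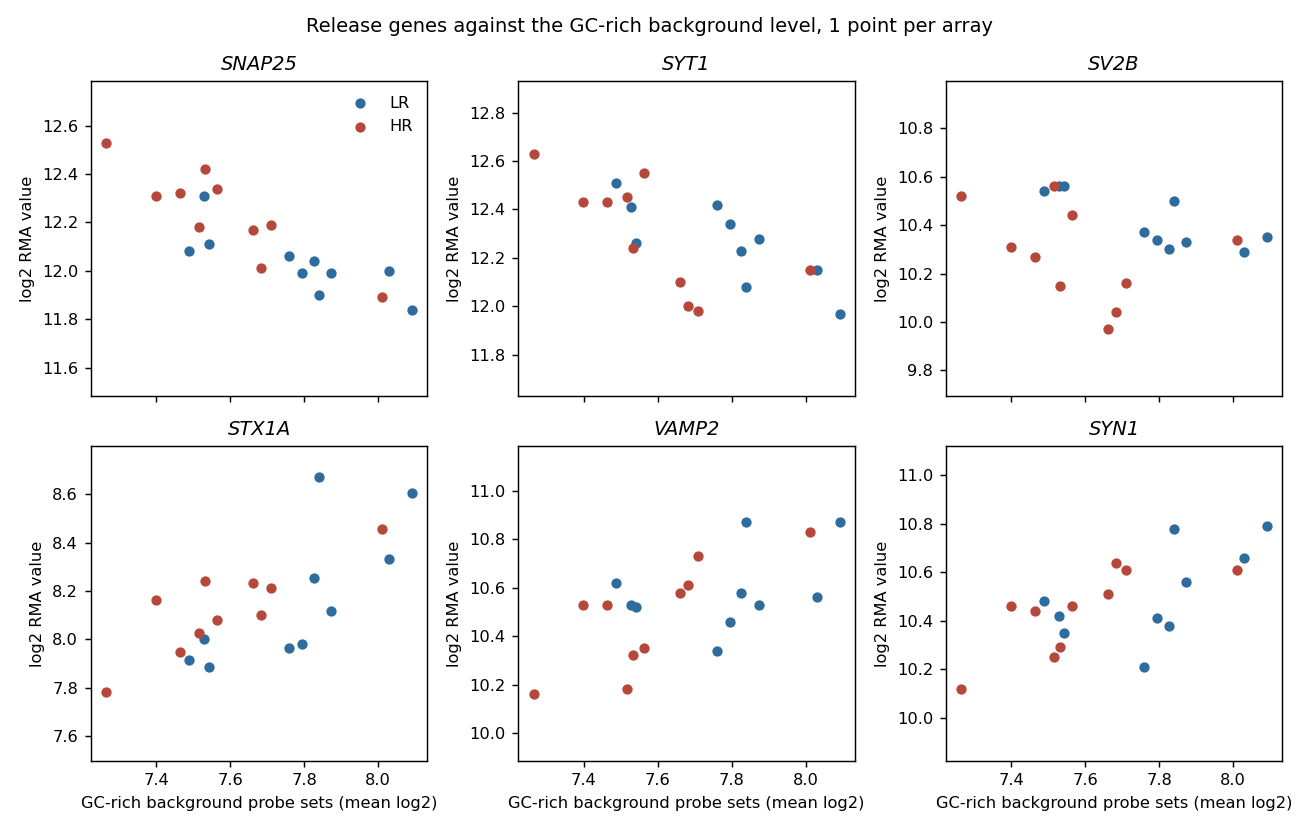
Log2 RMA value of 6 of the genes (y axis, 1 range of equal height per gene) against the mean log2 value of the 18 GC-rich background probe sets (x axis), with 1 point per array, LR in blue and HR in red. SNAP25 falls with the background (r = -0.862), as does SYT1 (-0.686), whereas STX1A (0.726), VAMP2 (0.637) and SYN1 (0.673) rise with it while SV2B has -0.232 over all arrays, -0.816 within LR and -0.373 within HR.

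The genes most like each member were read from 10312 other genes after the group means were taken out, as a description with no test. SYN1 was closest to GRIN1, the obligatory subunit of NMDA receptors (r = 0.99 over 20 arrays), followed by the axonal motor gene KIF1A (0.969) and the lysosomal ATPase gene ATP13A2 (0.962). SYT1 was closest to the RNA helicase gene DDX6 (0.982), the translation factor gene EIF5 (0.979) and GPD2 (0.975), the mitochondrial glycerol phosphate dehydrogenase. For VAMP2 they were CLIP3 (0.944), the complexin gene CPLX1 (0.938), whose protein binds the SNARE bundle, and CAMTA2 (0.933). STX1A was followed most closely by GOLGA7B (0.935), NEURL4 (0.928) and EIF3F (0.916), and SNAP25 by CFL2 (0.921), FAM19A2 (0.918) and GOPC (0.918). SYN2 was nearest to CLPTM1L (0.902), the laminin gene LAMB2 (0.901) and RNF10 (0.886). The lowest likeness was that of SV2B, with ARHGAP29 (0.843), the activin receptor gene ACVR2A (0.839) and PIKFYVE (0.837). No gene was named for 2 members, and the first component, with 48% of the variance, was not taken out before this reading.

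The other genes of release and recycling were read from 5 lists by role, with 120 genes beside the 8. Of these 103 had a probe set and 95 passed the filter. At an unadjusted p under 0.05 there were 4 genes higher and 3 lower in HR, or 7.37% of the 95 against the 11.5% of all kept probe sets, and after adjustment 0 passed. Leaving out 1 array gave 1 to 6 genes higher and 1 to 8 lower, the most lower ones without HR replicate 1. The mean was higher in HR for 31 genes and lower for 64, where 54.1% of all kept probe sets had a lower mean in HR. The median difference was -0.05 log2, like that of the 7 genes, against -0.01 for all kept probe sets.

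Among 20 SNARE proteins and their regulators 0 were higher and 1 was lower at the unadjusted threshold (5%, against 11.5% of all kept probe sets), with a median of -0.04. That gene was TPRG1L, which encodes the vesicle-associated protein mover. It ran from 9.09 to 9.90 in HR with a median of 9.45 and from 9.47 to 10.06 in LR with a median of 9.66, and differed by -0.20 ± 0.10 (limma p = 0.0499, adjusted p = 0.434). The difference of TPRG1L was -0.03 with the background level in the fit (p = 0.662), -0.06 with the neuron markers (p = 0.391) and -0.01 with the title number (p = 0.962). The complexin gene CPLX1 differed by -0.12 and NAPB, which helps to take SNARE bundles apart after fusion, by -0.09, and neither passed. STXBP5L, a tomosyn that binds syntaxin, differed by -0.24 without passing (p = 0.0963). Its difference was -0.35 with the background level (limma p = 0.0275), -0.37 with the neuron markers (p = 0.0137) and -0.37 with the first component (p = 0.00425). With the title number it was -0.33 (p = 0.0776), and without LR replicate 9 it was -0.16 (p = 0.214). Of 13 other synaptotagmin genes 0 passed in either direction, and the median was -0.07. SYT11, a synaptotagmin that does not sense calcium, had the smallest p, with 12.01 in HR and 11.89 in LR (difference 0.11, p = 0.0622), and its second probe set differed by 0.20 (p = 0.0306). SYT2, SYT3 and SYT6 differed by -0.16, -0.14 and -0.18 without passing.

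Of 17 other vesicle membrane proteins 1 was higher and 1 lower (11.8%, against 11.5% of all kept probe sets), with a median of -0.07. SYNPR encodes synaptoporin, a relative of synaptophysin that is known from the mossy fiber terminals of the rodent hippocampus. It had the largest difference of the 95 genes. Its values ran from 9.62 to 10.71 in HR with a median of 10.50 and from 9.17 to 10.72 in LR with a median of 9.80. Of the 10 HR arrays 9 lay above the LR median and 4 LR arrays lay below every HR array, although the highest array was an LR one. The difference was 0.58 ± 0.17 log2, a fold of 1.49 (limma p = 0.00271, adjusted p = 0.29). It was 0.16 once the title number was in the fit (p = 0.341), and 0.28 with the background level (p = 0.0474). With the neuron markers it was 0.32 (p = 0.0132) and with the first component 0.41 (p = 0.00473). RAB3C, a small GTPase of the vesicle, ran from 9.71 to 10.47 in HR with a median of 10.02 and from 10.06 to 10.60 in LR with a median of 10.22. It differed by -0.20 ± 0.09 (p = 0.0305, adjusted p = 0.393), while 6 of 10 HR arrays had values under every LR array. The synaptogyrin genes SYNGR2 and SYNGR4 differed by -0.12 and -0.13 without passing.

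At the active zone 0 of 19 genes were higher and 1 was lower (5.26%, against 11.5% of all kept probe sets), with a median of -0.05. This was LIN7B, a scaffold protein gene, which ran from 7.37 to 8.05 in HR with a median of 7.91 and from 7.86 to 8.18 in LR with a median of 8.01 (difference -0.20 ± 0.08, limma p = 0.0159, adjusted p = 0.353). With the background level in the fit LIN7B differed by -0.08 (p = 0.189), with the neuron markers by -0.11 (p = 0.0952) and with the title number by -0.11 (p = 0.232). With the first component LIN7B differed by -0.12 (p = 0.0248). Its relative LIN7C differed by 0.35 ± 0.21 without passing (p = 0.107). A dimmer probe set of LIN7C, below the filter with a mean of 4.52 log2, differed by 0.64 (limma p = 0.0104 without the dim filter). The adaptor gene APBA2 differed by -0.16 (p = 0.0595) and the neurexin gene NRXN2 by -0.15 (p = 0.128). In vesicle endocytosis, by which membrane is retrieved after release, 3 of 26 genes were higher and 0 lower, with a median of -0.02. These 3 were 11.5% of the list, against 11.5% of all kept probe sets in either direction and 7.78% higher. SNAP91, the clathrin assembly protein AP180 of neurons, averaged 11.07 ± 0.18 on HR and 10.87 ± 0.24 on LR arrays (SD, n = 10 each) and differed by 0.20 (p = 0.0388, adjusted p = 0.412). Its other 2 probe sets differed by 0.22 and 0.32. ITSN1, an endocytic scaffold, differed by 0.23 ± 0.11 (p = 0.0451, adjusted p = 0.423) and its 4 others by -0.04 to 0.33. Those with means of 4.67 and 2.175 log2 were below the filter, and the dimmest gave the -0.04. DNAJC6, which encodes the auxilin that strips clathrin from vesicles, differed by 0.14 ± 0.07 (p = 0.0465, adjusted p = 0.427). None of these 3 genes passed once the background level, the first component, the neuron markers or the title number was in the fit. With the background level SNAP91 differed by 0.03 (p = 0.619), ITSN1 by 0.04 (p = 0.652) and DNAJC6 by 0.03 (p = 0.499), and with the title number by -0.00403, 0.09 and 0.04. CLTC, the clathrin heavy chain, differed by -0.14 without passing (p = 0.0784). When each of the 20 arrays was left out in turn, the unadjusted p stayed under 0.05 in all 20 fits for SYNPR and LIN7B, in 15 for RAB3C, 10 for SNAP91, 8 for ITSN1 and 7 each for DNAJC6 and TPRG1L. RAB3C was the 1 gene of these 7 that kept its size with the background level (-0.21, p = 0.0337), although with the title number it did not pass (-0.19, p = 0.106).

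**Figure D5:**
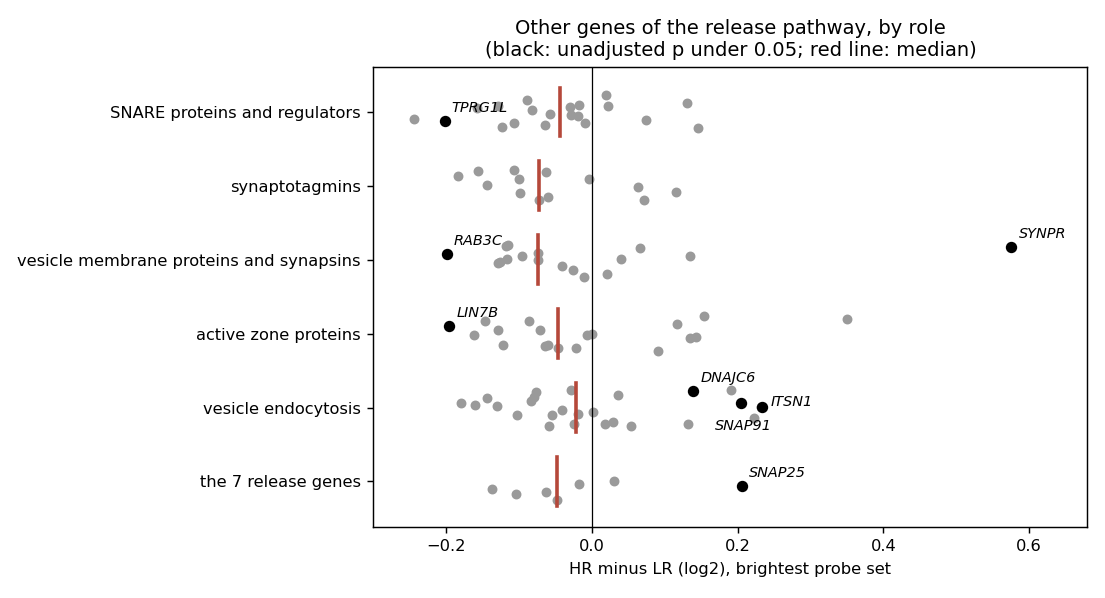
Difference HR minus LR (x axis, log2) of the brightest kept probe set of 95 other genes in 5 lists by role, with the 7 measured release genes in the bottom row. Black points passed an unadjusted p under 0.05, red lines mark the list medians, which lie between -0.07 and -0.02, and points are spread in height only for legibility.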

How the data were processed

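The deposited table holds log2 values that the authors made from the array scans with the robust multichip average (RMA) in Affymetrix Expression Console. The scanner software was GCOS 1.1.1, as the submitters' processing notes name it. RMA sets all arrays on 1 common distribution, so a shift of most transcripts cannot be seen. Arrays carry no read depth, and their number, 10 per group, limits the precision. 0 sample columns were left unused.

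Without the 123 controls, 23861 probe sets with a mean above the median of 5.53 were kept. In the platform annotation 26426 probe sets had 1 gene symbol and 21296 none. Gene order came from the Sscrofa11.1 annotation, and no coordinates are given since the build behind the array is not given in the sources used here. HR and LR were compared over all 20 arrays with limma 3.58.1 in R 4.3.3 without covariates, two-sided, at 0.05 after Benjamini-Hochberg adjustment over the whole kept table. Correlations used 100000 permutations (numpy 2.4.6), with 21 pairs since 1 of 8 members had no probe set. Replicate numbers follow accession order and pair nothing. Nothing in the labels says more of the animals, so p-values measure the spread between these samples.

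Named genes were the members with all their probe sets, up to 4 genes per role list with the smallest p, the 3 genes most like each member and the brightest gene of the marker lists named. The members and lists were chosen with earlier results of these data known. Interneurons, oligodendrocyte precursors, microglia, endothelium, choroid plexus, meninges and blood cells were read as marker lists too, and differed between HR and LR in their mean level by -0.07 (CCK brightest), -0.02 (PTPRZ1), -0.07 (C1QC), -0.02 (SLC2A1), 0.21 (TTR), 0.10 (COL1A2) and -0.02 (HBB), astrocytes by 0.01 and oligodendrocytes by 0.04. The limma script was tested on simulated data. Alternatives covered the dim filter, covariates, scaling, array weights, left-out arrays, the rank test and the mean of a gene's probe sets.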

Additional observations from a re-analysis of the deposited data

Results flagged for a closer look

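Gaps between an extreme array and its nearest neighbour were compared with Dixon's limit in 68 groups of 10 arrays, and 5 groups passed, where chance gives about 5%. In the dimmest probe set of SYN2 (probe set 4), LR replicate 2 read 4.56 log2 against 5.15 for the next array. STXBP5L read 7.72 in LR replicate 9 against 7.16 for the next array, and RAB3C read 10.60 in the same array against 10.30, so the highest LR value of both genes came from 1 animal. HR replicate 1 was lowest for SYT11 with 11.77 against 11.97 and for SNAP91 with 10.65 against 10.98. This array also had the highest GC-rich background level of the HR group, 8.01, and its lowest first component score, -31.1. None of the brightest probe sets of the 7 measured release genes passed the limit.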

How the results depend on the processing

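The 0 probe sets past the adjusted threshold became 1 with the first principal component as a covariate and 947 with array weights. The 2750 at an unadjusted p under 0.05 became 4495 without the dim filter, 1596 in the upper quartile, 675 with the title number, 1580 with the GC-rich background level, 5611 with array weights and 1738 once the highest and the lowest array of the first component were left out (the end arrays). Leaving out 1 array gave 0 to 110 and 1888 to 4497, with both upper values without HR replicate 1. Results with the title number, here and below, come from fits that can hardly tell group from number. Of the 7 genes, 0 were at an unadjusted p under 0.05 with the title number and 2 with the first component, and 1 to 2 when 1 array was left out (2 without HR replicate 2 or 5). With array weights 1, SNAP25, passed the adjusted threshold (0.24, p = 0.000935). SNAP25 stayed between 0.17 and 0.24, with p from 0.00255 to 0.0287, when 1 array was left out, and was 0.10 (p = 0.446) as the mean of its probe sets. Without the end arrays the 1 gene past the unadjusted threshold was SV2B in place of SNAP25.

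Of the other pathway genes, the 4 higher became 0 with the title number, 2 with the background level, the first component or the oligodendrocyte markers, 1 with the neuron markers or without the end arrays and 11 with array weights. The 3 lower became 0 with the title number, 6 with the background level, 14 with the first component, 8 with the neuron markers and 7 with array weights. Leaving out 1 array gave 1 to 6 higher, with 1 or 2 without HR replicate 2, 5, 6, 7 or 8 or LR replicate 1, 2, 3, 4, 6 or 8. It gave 1 to 8 lower, with 1 without HR replicate 7, 8 or 9, 5 without HR or LR replicate 10 and 8 without HR replicate 1. With array weights 2 passed the adjusted threshold, SYNPR (0.61) and RAB3C (-0.26).

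The sign turned for members with small differences. SYT1 was -0.115 with the title number, -0.112 with the background level, -0.0793 with the first component, -0.102 with the neuron markers and -0.0396 without the end arrays. In the same order STX1A was 0.179, 0.129, 0.0684, 0.101 and 0.0383, SYN1 0.0817, 0.0547, 0.0215, 0.0287 and 0.00368, and SYN2 0.0696, 0.0629, 0.041, 0.0569 and 0.0334. VAMP2 turned to 0.04 with the title number and to 0.0108 with the background level. The difference of medians was 0.0738 for STX1A and 0.0103 for SYN1. When 1 array was left out SYT1 ran from -0.00654 to 0.0654, STX1A from -0.0846 to 0.00759 and SYN2 from -0.044 to 0.0157. With the title number CPLX1 was 0.0269, SYT11 -0.00269, SYT6 0.0696, NRXN2 0.0287 and SNAP91 -0.00403. With the background level CPLX1 was 0.0096, NRXN2 0.0162 and LIN7C -0.0245, and with the neuron markers LIN7C was -0.00804. Without the 2 farthest arrays r of SYT1 and the oligodendrocyte markers was -0.00861. With the background taken out r was 0.123 for SNAP25 and STX1A and -0.277 for SNAP25 and SV2B. The causes were not tested. No paired analysis was possible because the replicate numbers follow accession order and pair no animals.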
